A study of Oryza sativa with 8 samples.

Results

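The response of the rice line M202(Sub1) to 24 h under water was measured in 4 arrays out of the 8 of the series, 2 from submerged plants (day 1) and 2 from non-submerged plants (day 0). M202 is a japonica cultivar that is damaged by long flooding, and M202(Sub1) is the same cultivar after introgression of the SUB1 region, given in the labels as carrying Sub1A. The comparison groups are M202(Sub1) non-submerged, M202(Sub1) submerged, M202 non-submerged and M202 submerged, each with 2 arrays. All plants were 14 days old at the start, and aerial tissue was taken. Submerged plants were covered by deionized water in the early afternoon and harvested 24 h later. When the non-submerged plants were harvested is not stated in these sources, so 1 day of age, and possibly the hour, cannot be told apart from submergence. The labels call the replicates biological without saying what separated them, so p-values measure the spread between these samples. A bulk sample of shoot also cannot tell fewer cells of a type from less RNA per cell.

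Under water, gas exchange with the air slows, and plant cells that run short of oxygen turn to sugar breakdown by glycolysis and to ethanol fermentation, which regenerates NAD+ without respiration. Ethylene builds up in submerged shoots. In many rice cultivars it lowers abscisic acid and raises gibberellin action, and leaves and stems elongate. Sub1A encodes an ethylene response factor (ERF) that is known to restrain this elongation and the use of carbohydrate, and lines that carry it survive complete submergence longer.

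Values are deposited log2 signals, on which 1 unit is a 2-fold difference. A change is the submerged minus the non-submerged group mean, ± SE, n = 2 arrays per group. The SE is that of the limma fit, whose spread is estimated from all 8 arrays, M202 included. A gene rose or fell where the limma fit over all 8 arrays gave a Benjamini-Hochberg adjusted p below 0.05. Changes are relative to the deposited scaling. Of 34355 probe sets tested, 9517 rose (27.7%) and 7291 fell (21.2%), together 48.9%, and the median change of all of them was 0. The arrays of the groups did not overlap in any called probe set, nor in 65.8% of all probe sets tested. With arrays centred on the poly(A) spike-in controls, which are added to the RNA before labelling, the median moved to -0.34, and 6816 probe sets rose and 19710 fell. Higher calls were then 25.7% of all calls, against 56.6% on the deposited scale. List counts are given on both scales where the balance of rises and falls turns. The plot of all probe sets shows changes at every signal level. A change of 2-fold or more was reached by 4186 rises and 3881 falls, 16-fold or more by 467 and 314, and 64-fold or more by 177 and 52. Among the 1596 probe sets with a non-submerged mean of at least 12, 966 fell and 408 rose. Probe sets that were bright only after submergence could not enter this set, so the choice itself favours falls. Replicate arrays of M202(Sub1) correlated at r = 0.9976 and 0.9978, and their median absolute difference was 0.0839 in non-submerged and 0.0722 in submerged plants, against a median absolute change of 0.964 among calls. The gene names kept here cover 19 of the 177 probe sets with the largest rises and 5 of the 52 with the largest falls. Most of the strongest responses thus have no name here. Counts of gene lists use 1 probe set per gene, for which 37.0% of 16032 genes rose, 29.3% fell and the median change was 0.05.

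**Figure D1:**
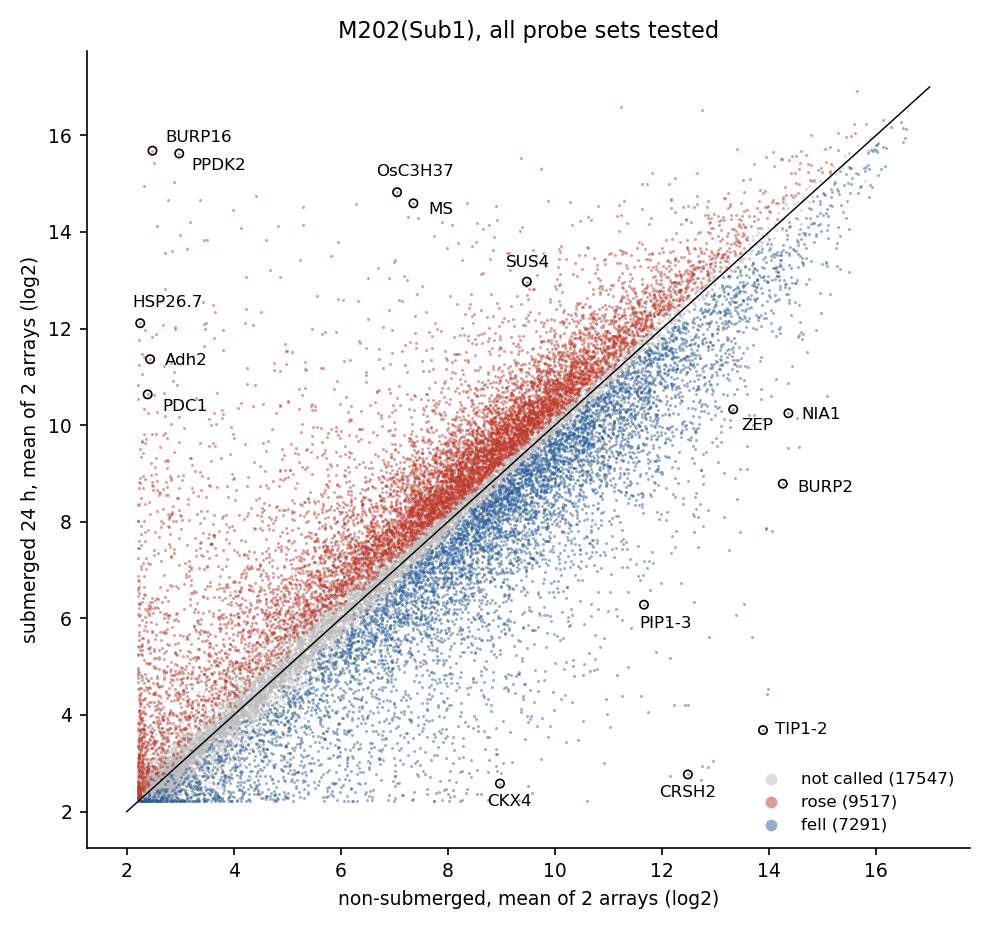
Mean log2 signal of each of 34355 probe sets in non-submerged (x axis) and submerged (y axis) M202(Sub1), 2 arrays each, with the diagonal as no change. Red points rose (9517), blue points fell (7291) and grey points were not called. BURP16 and PPDK2 lie at the upper left, and TIP1-2 and CRSH2 at the lower right.

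The tissue labels were set against marker genes. RBCS, the small subunit of Rubisco, had 16.58 and 16.58 in non-submerged and 16.54 and 16.48 in submerged plants, near the top of the scale. The light-harvesting gene CAB2R had 16.52 and 16.42, then 16.31 and 16.23, and GLO1 had 15.97 and 15.60, then 15.04 and 15.07. RBCS1, also on the leaf list, was dim, with 2.66 and 2.65, then 2.64 and 2.65. The PPDK genes of that list are described below. The glutelin genes GLUA-1 and GLUA-3, a prolamin gene and the root silicon exporter Lsi2 lay at the floor of 2.22 on all 4 arrays. Other genes on the root and seed lists had signal, among them Lsi1 (10.07 and 10.05, then 9.51 and 9.49), IRT1 (6.94 and 6.69, then 5.97 and 5.64) and GLUA-2 (9.10 and 9.01, then 9.44 and 9.52), and their part in the results was not tested. No probe set was paired by name with Sub1A, so the introgressed gene itself was not analysed here.

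Enzymes of fermentation and of carbon salvage were among the steepest rises of named genes. All 3 measured fermentation genes rose. PDC2, a pyruvate decarboxylase, had 10.11 and 10.12 without and 13.72 and 13.69 with submergence, a rise of 3.59 ± 0.03 (limma adjusted p = 8.27e-07), and this gene was well above the floor in both groups. PDC1, of the same kind, went from 2.52 and 2.26 to 10.66 and 10.62, and the alcohol dehydrogenase gene Adh2 from 2.44 and 2.44 to 11.41 and 11.32. Both began at or near the lowest values that their probe sets gave, so their folds are limited by a floor.

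Genes of the glyoxylate cycle, which turns acetyl units from fat into sugar precursors, rose too. MS, malate synthase, had 7.36 and 7.35 without and 14.59 and 14.59 with submergence, a rise of 7.24 ± 0.05 (limma adjusted p = 5.94e-07). ICL, isocitrate lyase, the other enzyme particular to the cycle, had 3.14 and 2.24, then 10.68 and 10.66. In both genes the submerged arrays lay far above the non-submerged ones, and within each submerged pair the arrays were nearly equal. PPDK2, a pyruvate orthophosphate dikinase that interconverts pyruvate and phosphoenolpyruvate, went from 3.0 and 2.96 to 15.65 and 15.60, a rise of 12.64 ± 0.21 (limma adjusted p = 2.74e-06). PPDKB, another gene for this enzyme, moved the other way, from 11.75 and 11.65 to 10.93 and 10.92. The submerged level of PPDK2 was thus among the highest on the array, while its non-submerged arrays lay close to the floor. The probe set of PPDK2 is of a kind that may also detect related transcripts.

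In glycolysis 7 of 17 measured genes rose, 3 fell and 7 had no call, with a median of 0.25, and with spike-in centring 5 rose and 5 fell, with a median of -0.08. The rises belonged to single members of each enzyme family. GAPC3, a glyceraldehyde phosphate dehydrogenase, had 11.59 and 11.85, then 15.04 and 14.95. AldC-1, a cytosolic aldolase, had 12.13 and 12.12, then 14.96 and 15.02, and the enolase Eno1 had 12.42 and 12.55, then 14.55 and 14.53. HXK6, a hexokinase, rose by 3.87 ± 0.26 from arrays that differed among themselves (4.88 and 5.65). In all 4 genes the submerged arrays lay well above the non-submerged ones. For the supply of sugar, the sucrose synthase SUS4 went from 9.5 and 9.45 to 12.98 and 12.96, a rise of 3.5 ± 0.03 (limma adjusted p = 6.05e-07), and the alpha-amylase AMY1.5, a starch-degrading enzyme, rose by 3.06 ± 0.1. CIN1, a cell wall invertase, fell by 1.74 ± 0.06. In the list of sucrose and starch breakdown 3 of 12 genes rose, 4 fell and 5 had no call, with a median of -0.12.

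Sugar transporter genes split. Of 21 genes for sugar transport and trehalose 9 rose, 8 fell and 4 had no call, and with spike-in centring 7 rose and 11 fell. SWEET11, a sucrose exporter, rose by 3.75 ± 0.21, from 5.89 and 6.09 to 9.86 and 9.62. SWEET2B fell by 3.72 ± 0.06 and SWEET16, of the same family, by 3.62 ± 0.16. SWEET15 fell from 7.33 and 8.16 to the common floor on both submerged arrays, so its fall of 5.53 is limited by that floor.

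Genes for handling oxygen moved in opposite directions. The non-symbiotic haemoglobins NSHB1 and NSHB2, oxygen-binding proteins that scavenge nitric oxide, rose by 1.45 ± 0.09 and 1.28 ± 0.07. AOX1, the alternative oxidase that passes electrons from ubiquinone straight to oxygen, had 8.69 and 8.63 on the non-submerged and 4.43 and 4.39 on the submerged arrays. That is a fall of 4.25 ± 0.2 (limma adjusted p = 4.44e-05), and the groups lay far apart. Of 7 other genes of mitochondrial electron transport 4 rose, 0 fell and 3 had no call, with a median of 0.34. By name all of them but COX5c belong to succinate dehydrogenase, so this list covers little of the chain. The rises were small, led by SDH4 with 0.93 ± 0.1 and COX5c with 0.89 ± 0.09, a succinate dehydrogenase and a cytochrome oxidase subunit. With spike-in centring 2 rose and 2 fell, and SDH6, which rose by 0.29 ± 0.07 on the deposited scale, had -0.052.

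The chloroplast lists fell. All 5 photosystem and light-harvesting genes fell, with a median of -0.30, and 7 of 10 genes of the Calvin cycle and photorespiration fell with 0 rises, with a median of -0.69. FBPase, the fructose bisphosphatase, went from 13.82 and 13.81 to 12.31 and 12.18. For photorespiration, GDCSH, the H protein of glycine decarboxylase, went from 14.74 and 14.74 to 13.03 and 13.02, and GLO4, a glycolate oxidase, fell by 2.41 ± 0.1. GLN2, the chloroplast glutamine synthetase that recaptures photorespiratory ammonium, fell by 1.42 ± 0.03, from 15.46 and 15.52 to 14.06 and 14.07. In chlorophyll synthesis 9 of 10 genes fell, 0 rose and 1 had no call, with a median of -0.77, against 29.3% falls among all genes. CHLI, a magnesium chelatase subunit, had 7.09 and 7.27, then 4.05 and 4.13. CHLH, the subunit that binds the porphyrin, went from 14.07 and 13.92 to 12.80 and 12.81, and the uroporphyrinogen synthase HEMD fell by 0.93 ± 0.1. The change of CHLI was thus the larger of these on the log2 scale.

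Antioxidant and redox genes fell beside them. In the antioxidant list 22 of 35 genes fell, 7 rose and 6 had no call, with a median of -0.68. The peroxiredoxin PRXIIE-2 had 13.66 and 13.51 in non-submerged and 10.65 and 10.65 in submerged plants. The thioredoxin gene OsTrxf, known for light activation of Calvin cycle enzymes, went from 14.57 and 14.58 to 12.20 and 12.06, a fall of 2.44 ± 0.05 (limma adjusted p = 4.20e-06). OsTrxy, of another plastid thioredoxin type, fell by 2.23 ± 0.05 and APX7, an ascorbate peroxidase, by 2.44 ± 0.09. CRSH2, a calcium-activated enzyme of the chloroplast that makes the alarmone ppGpp, fell from 12.62 and 12.34 to 2.61 and 2.93. Its change of -9.71 ± 0.3 (limma adjusted p = 1.34e-05) took a bright probe set to within 1 unit of the floor.

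Nitrogen and sulphur assimilation genes changed in both directions. NIA1, nitrate reductase, went from 14.38 and 14.34 to 10.19 and 10.31, a fall of 4.12 ± 0.04 (limma adjusted p = 1.13e-06). Nitrate uptake components rose from low levels. NAR2.2, the partner protein of high-affinity nitrate transporters, went from 2.69 and 2.69 to 6.05 and 5.98, and NRT2.3, such a transporter, from 2.23 and 2.23, near the floor, to 5.31 and 5.53. GLT2, which the name places with glutamate synthase, rose by 4.1 ± 0.15. The nitrate and ammonium list had 6 rises, 4 falls and 6 with no call among 16, with a median of 0, and with spike-in centring 4 rose and 8 fell. The genes named SAT1 and SAT4 moved in opposite directions, from 9.61 and 9.7 to 13.48 and 13.53 and from 10.39 and 10.28 to 5.22 and 5.07. APR-like1, related by name to adenylylsulphate reductase, fell by 5.2 ± 0.16. Among phosphate genes PHT1-1, a phosphate transporter, rose by 4.39 ± 0.08 from 6.76 and 6.83, although another probe set of the gene was called in the opposite direction, and the mean of its probe sets was -0.040. PHT1-4 of the same family fell by 2.17 ± 0.17. The potassium transporters HAK7 and HAK1 rose by 4.3 ± 0.09 and 4.21 ± 0.36, and HAK27 fell by 4.79 ± 0.17.

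**Figure D2:**
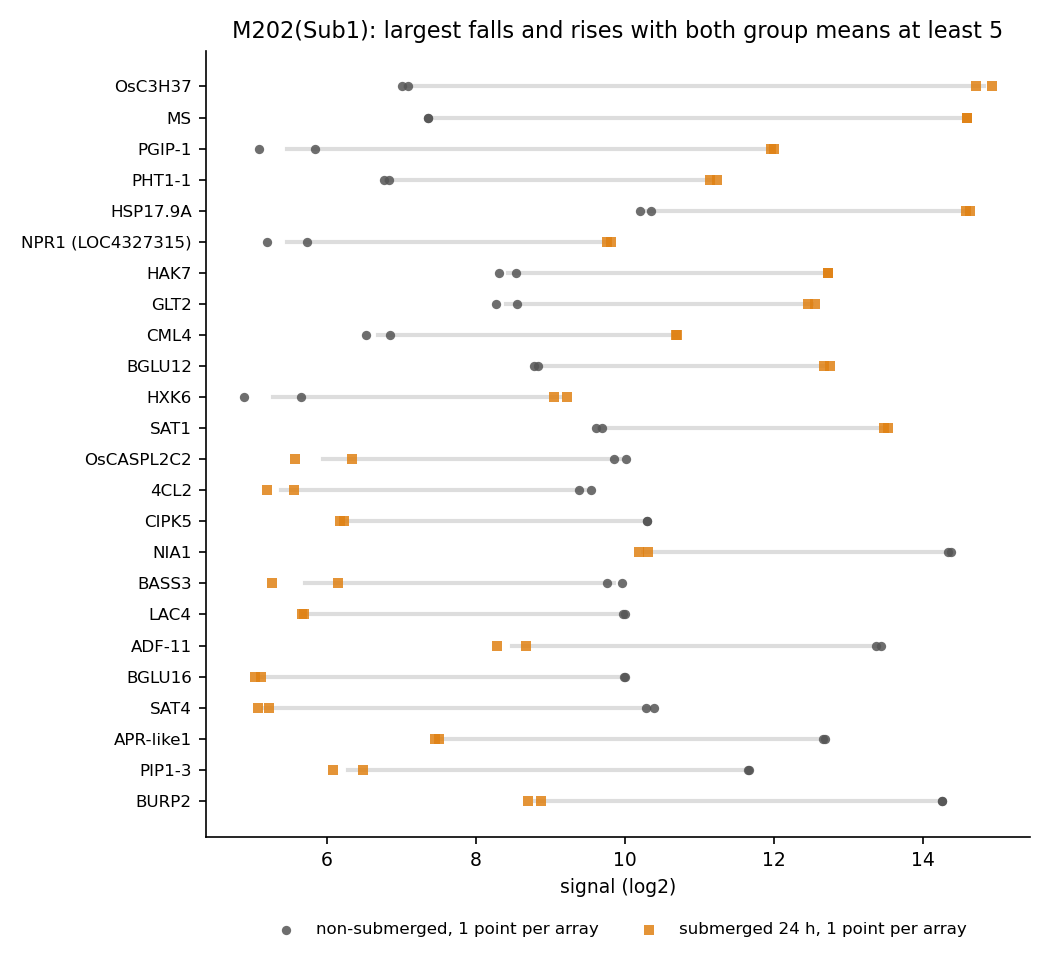
Log2 signal on each M202(Sub1) array (x axis) of the 12 named genes with the largest rises and the 12 with the largest falls among genes whose 2 group means were both at least 5. Circles are the non-submerged and squares the submerged arrays, and grey bars join the group means. In every gene plotted the submerged arrays lie on 1 side of the non-submerged ones, which the rule for choosing them required.

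Away from the floor, the largest rises also included OsC3H37, a CCCH zinc finger gene, which went from 7.09 and 7.01 to 14.93 and 14.71. PGIP-1, a polygalacturonase inhibitor that protects cell wall pectin from fungal enzymes, rose by 6.52 ± 0.32, with non-submerged arrays at 5.09 and 5.84. BURP16, which encodes a BURP-domain protein, had the largest rise of the named genes, from 2.48 and 2.48, the lowest value of its probe set, to 15.60 and 15.76. BURP2 of the same family fell from 14.26 and 14.25 to 8.87 and 8.7. The actin-depolymerizing factor ADF-11 fell by 4.92 ± 0.18 and the beta-glucosidase gene BGLU16 by 4.92 ± 0.14, while BGLU12 rose by 3.91 ± 0.09. The arrays of a group differed by less than 1 unit in each of these genes.

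Water channel genes mostly fell. TIP1-2, a channel of the vacuole membrane, had 13.92 and 13.85 in non-submerged and 3.86 and 3.51 in submerged plants, a fall of 10.20 ± 0.25 (limma adjusted p = 7.32e-06), the largest among named genes. Of 9 plasma membrane aquaporins 6 fell, 2 rose and 1 had no call, with a median of -0.31. PIP1-3 went from 11.67 and 11.66 to 6.08 and 6.48, PIP2-4 from 8.9 and 8.89 to 3.53 and 3.05, and PIP2-2 fell by 3.2 ± 0.12. PIP2-2 kept a signal above 11, whereas PIP2-4 came near the floor. In the other aquaporin classes 6 of 12 fell, 5 rose and 1 had no call, and the leaf silicon channel Lsi6 fell by 1.5 ± 0.09.

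Lists tied to abscisic acid, the hormone of drought and dormancy, differed, and the signalling list described below was mixed. Of 6 genes for its synthesis and breakdown 5 fell and 1 rose, with a median of -1.95. The falls were those of ZEP, the breakdown gene ABA8OX2, and PSY1, PSY2 and PSY3, which act earlier, in carotenoid synthesis. ZEP, the zeaxanthin epoxidase, had 13.34 and 13.32, then 10.29 and 10.36, and PSY3, a phytoene synthase that feeds the pathway with carotenoid, fell by 2.02 ± 0.13. The 8'-hydroxylase ABA8OX1, which inactivates the hormone, rose from 4.81 and 4.37 to 9.5 and 9.44, while ABA8OX2, of the same kind, fell from 9.94 and 9.78 to 6.24 and 5.9. The arrays did not overlap in either gene, as in every called probe set. Among dehydrin and late embryogenesis genes, which protect drying cells, 5 of 7 fell, 0 rose and 2 had no call, with a median of -1.99. Dhn1 had 9.6 and 9.75, then 4.58 and 4.42, and RAB16C fell by 3.25 ± 0.2 and RAB21 by 3.01 ± 0.12.

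The list of protein phosphatases 2C, SAPK kinases and related abscisic acid signalling genes was mixed, with 30 of 66 higher, 20 lower and 16 with no call and a median of 0.12. With spike-in centring 23 rose and 31 fell. The largest changes in it were all falls of phosphatases, a class in which some members restrain abscisic acid signalling. PP2C30 had 8.5 and 8.38, then 2.59 and 2.82. PP2C06 fell by 5.57 ± 0.24, OsPP2C09 by 4.77 ± 0.17 and OsPP2C08 by 3.81 ± 0.36. Hox22, a homeodomain-leucine zipper gene, fell by 5.08 ± 0.18, and HOX12 of the same family rose by 4.86 ± 0.35.

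Ethylene perception genes moved one by one. Of 9 ethylene genes 4 rose, 1 fell and 4 had no call, with a median of 0.37. The receptor gene ETR2 had 8.76 and 8.97, then 11.71 and 11.82, and ETR3 rose by 1.0 ± 0.06. ERS2, also a receptor, fell from 5.3 and 5.48 to 2.4 and 2.4, the lowest value of its probe set. EIL1A, a transcription factor of the ethylene signalling pathway, rose from an already high 13.05 and 13.06 to 14.35 and 14.32. Few ERF and DREB genes were paired by name, and of 9 measured 2 rose, 2 fell and 5 had no call, with 0 rises and 3 falls after spike-in centring. The largest of these changes was that of AP2-1 (-0.94 ± 0.15), so few members of the wider family of Sub1A could be described here.

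Gibberellin genes had more rises than falls, with 7 of 12 higher, 2 lower and 3 with no call, a median of 0.74, and 5 higher and 4 lower with spike-in centring. KAO, the ent-kaurenoic acid oxidase of early synthesis, went from 5.33 and 5.49 to 8.46 and 8.38. The later oxidases GA20OX3 and GA20OX2 rose by 2.76 ± 0.11 and 2.62 ± 0.11, and the receptor gene gid1 rose from 10.28 and 10.06 to 12.11 and 12.18. The rises also included SLR1 and SPY, repressors of gibberellin signalling, by 0.38 ± 0.11 and 0.38 ± 0.04. GID2, the F-box protein that acts after the receptor, and CPS1, of an early synthesis step, were the falls, by 0.43 ± 0.05 and 1.32 ± 0.22. SLR1, SPY, GID2 and CPS1 are named after their values were seen. Brassinosteroid and strigolactone genes had 6 rises, 3 falls and 2 with no call among 11, and 5 in each direction with spike-in centring. BZR3, a transcription factor gene of the brassinosteroid pathway, went from 7.34 and 7.4 to 9.2 and 9.16, while BU1, a helix-loop-helix gene that promotes the response to that hormone, fell by 2.62 ± 0.13. CCD7, which acts in strigolactone synthesis, fell by 2.43 ± 0.23, and D3, an F-box protein of its signalling, rose by 1.64 ± 0.17.

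Cytokinin genes fell in the larger number. Of 25 measured 14 fell, 9 rose and 2 had no call, with a median of -0.58. CKX4, which degrades cytokinin, went from 8.99 and 8.96 to 2.6 and 2.56, a fall of 6.39 ± 0.14 (limma adjusted p = 5.47e-06). The type-A response regulators RR1 and RR9, which cytokinin induces and which dampen its signal, fell from 9.38 and 9.44 to 4.61 and 4.18 and from 10.54 and 10.41 to 7.43 and 7.42. LOG, the enzyme that activates cytokinin, fell by 2.71 ± 0.14. Members of the same families also rose, CKX5 by 2.59 ± 0.18 and LOGL9 and LOGL1 by 2.35 ± 0.14 and 1.57 ± 0.06, and these were chosen after their values were seen. In CKX4, LOG, RR1 and RR9 both submerged arrays lay below both non-submerged ones, which the rule for named genes required.

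Auxin genes were split, with 25 of 53 higher, 14 lower and 14 with no call, a median of 0.16, and 18 higher and 25 lower with spike-in centring. SAUR39, a small auxin-up RNA gene, rose from 3.07 and 4.0 to 10.15 and 10.12. The Aux/IAA repressor genes IAA18, IAA6 and IAA8 rose by 3.28 ± 0.16, 3.04 ± 0.07 and 2.59 ± 0.21. In the jasmonate list 14 of 33 rose, 11 fell and 8 had no call, with a median of 0.03, and with spike-in centring 10 rose and 15 fell. The lipoxygenase genes LOX8, LOX9 and LOX5, which oxidize membrane fatty acids, rose, LOX8 from 4.76 and 5.14 to 11.62 and 11.75. LOX9 rose by 4.47 ± 0.09 and LOX5 by 2.64 ± 0.07. JAZ8, a repressor of jasmonate response that the hormone itself induces, fell from 6.94 and 7.24 to 2.57 and 2.6.

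Cell wall genes fell in the larger number. In the list of cellulose and cell wall genes 19 of 31 fell, 6 rose and 6 had no call, with a median of -0.46, and among expansins, which loosen walls during growth, 10 of 20 fell, 4 rose and 6 had no call, with a median of -0.73. PMEI8, an inhibitor of pectin methylesterase, had 9.87 and 9.85, then 3.55 and 3.53. EXP5 fell by 4.39 ± 0.25 and EXPB11 by 2.45 ± 0.1, while EXLA2, an expansin-like gene, rose from 7.87 and 7.6 to 10.59 and 10.23. OsCslF8 and CSLF2, synthases of mixed-linkage glucan, fell by 2.68 ± 0.22 and 1.91 ± 0.29. Of 25 lignin and phenylpropanoid genes 9 fell, 6 rose and 10 had no call. The laccase LAC4 went from 9.97 and 10.00 to 5.69 and 5.66 and 4CL2, a coumarate-CoA ligase, from 9.55 and 9.39 to 5.56 and 5.19, whereas CAD8A, a cinnamyl alcohol dehydrogenase, rose from 2.7 and 3.01 to 8.3 and 8.01. In LAC4 and 4CL2 both submerged arrays lay far below the non-submerged pair, and in CAD8A far above it.

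Small heat shock proteins fell more often than they rose. Of 18 small heat shock proteins 11 fell, 5 rose and 2 had no call, with a median of -1.33. HSP18.1 had 10.28 and 10.34, then 3.93 and 4.61, and HSP26.2 fell by 3.28 ± 0.17. HSP26.7 did the reverse, from 2.25 and 2.25, near the floor, to 12.10 and 12.12, and HSP17.9A rose from an already high 10.20 and 10.36 to 14.64 and 14.59. Of 25 other chaperones and heat shock factors 13 rose, 5 fell and 7 had no call, with a median of 0.55. Most genes of that list are heat shock factors, which are transcription factors. Among its chaperones, looked at after their values were seen, Hsp90, BIP1 and CLPB3 rose by 1.29, 0.64 and 0.55, and CLPB2 fell by 0.57. HSP82 had -0.09 ± 0.09 with no call, although another probe set of the gene was called in the opposite direction. The heat shock factor gene HSF03 rose by 4.03 ± 0.1, while HSF02 fell to the lowest value of its probe set, from 6.24 and 5.56 to 2.59 and 2.59. CLPB1, a chaperone that dissolves protein aggregates, fell by 2.34 ± 0.11. The gene entry HSF25, which also carries names of an unrelated enzyme, rose by 8.64 ± 0.15.

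**Figure D3:**
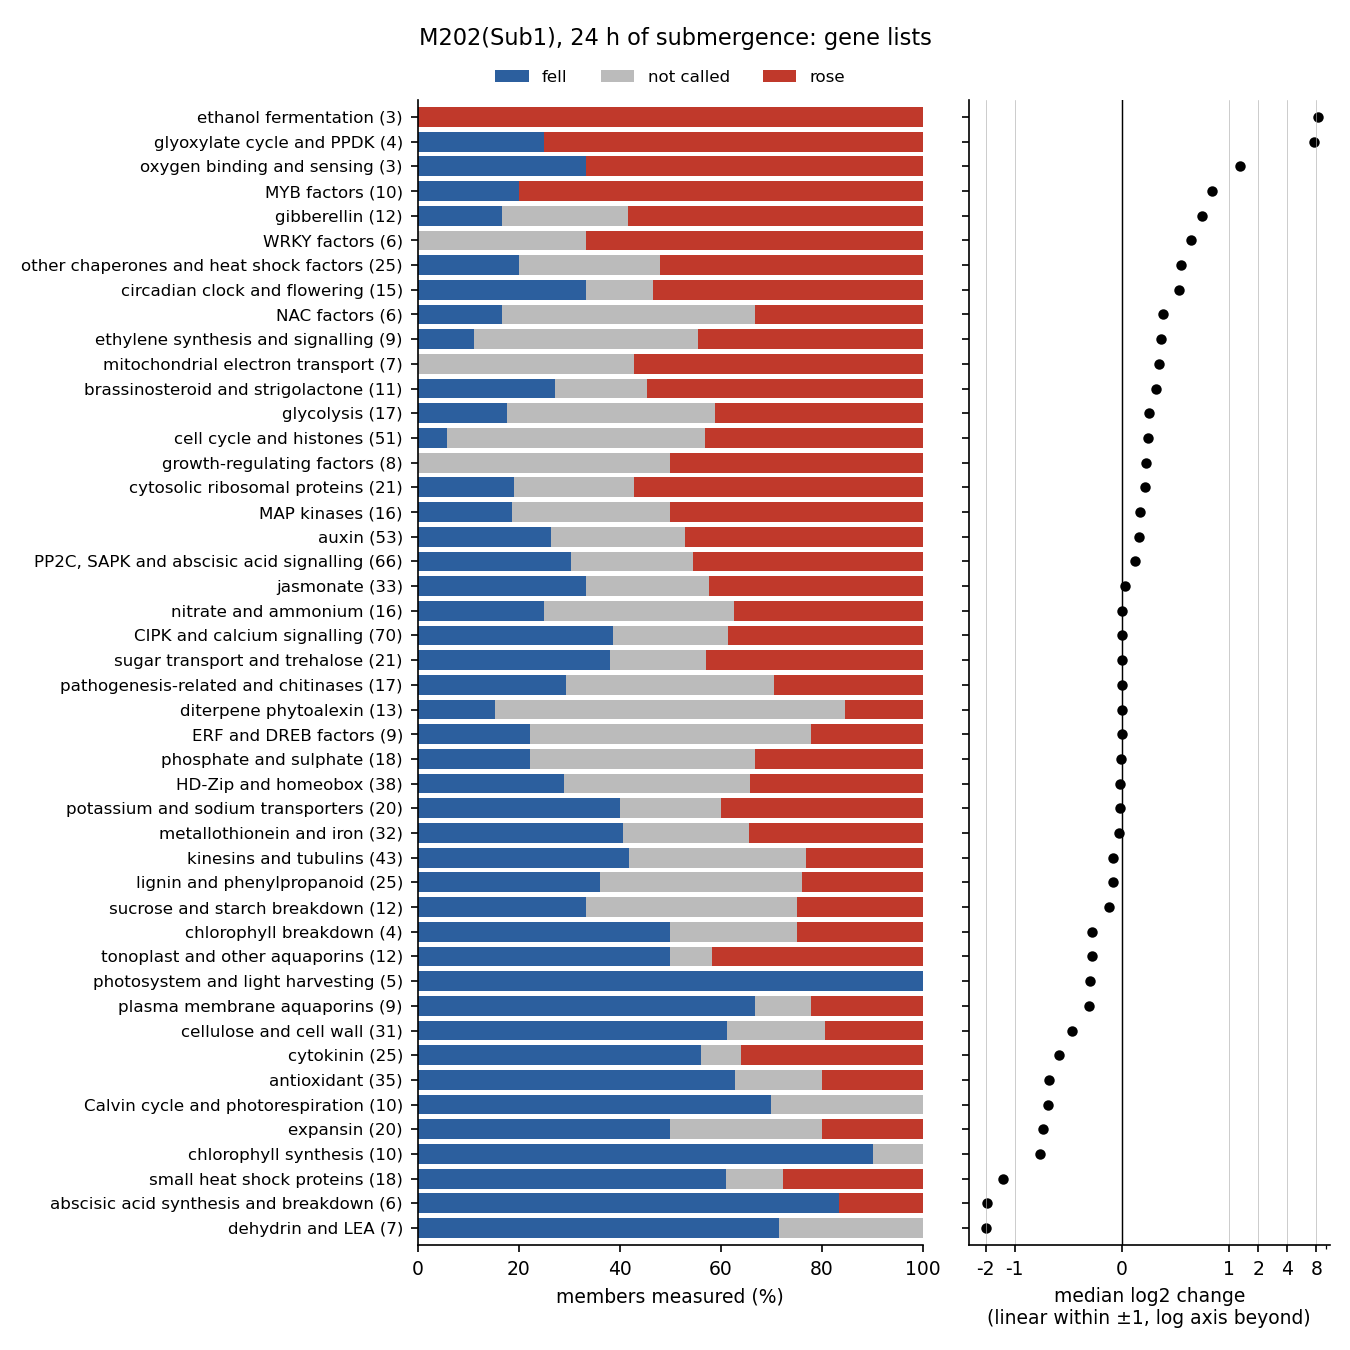
For each of 46 gene lists, with the number of measured genes in brackets, the left panel gives the percent of members that fell (blue), were not called (grey) or rose (red) in M202(Sub1), and the right panel the median log2 change, on an axis that is linear within 1 unit of 0 and logarithmic beyond. Fermentation stands at the top (median 8.25) and dehydrin and LEA genes at the bottom (median -1.99).

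The few MYB and WRKY transcription factor genes that were paired by name rose more often than they fell. All 10 measured MYB genes were called, 8 higher and 2 lower, with a median of 0.84. MYB4, known for its part in cold tolerance, rose from 4.51 and 5.04 to 8.07 and 8.03. Of 6 WRKY genes, a family of stress and defence regulators, 4 rose, 0 fell and 2 had no call. WRKY24 and WRKY71 rose by 3.31 ± 0.18 and 3.26 ± 0.14, from 6.79 and 6.41 to 9.93 and 9.79 in WRKY71. NAC068 rose by 3.95 ± 0.18 and NAC071, of the same NAC family, fell by 2.25 ± 0.06. Among growth-regulating factors, regulators of cell proliferation in young leaves, 4 of 8 rose and 0 fell, with a median of 0.23, though with spike-in centring 3 rose and 4 fell. GRF7 went from 2.52 and 2.52, the lowest value of its probe set, to 5.91 and 5.25. GRF6 rose by 2.01 ± 0.41 from the floor, with submerged arrays that differed by more than 1 unit (3.61 and 4.9), and it was not called under some alternatives.

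In the list of cell cycle and histone genes 22 of 51 rose, 3 fell and 26 had no call, with a median of 0.24, but 16 rose and 20 fell with spike-in centring. CDKF-1, a kinase that activates other cyclin-dependent kinases, rose from 9.6 and 9.56 to 11.55 and 11.61, and CYCP2-1, a P-type cyclin, fell by 2.64 ± 0.18. Of 43 kinesins and tubulins 18 fell, 10 rose and 15 had no call, led by the kinesin KIN8B with a fall of 2.25 ± 0.09. Of 21 measured cytosolic ribosomal protein genes 12 rose, 4 fell and 5 had no call, with a median of 0.22, and 2 rose and 7 fell with spike-in centring. The range ran from -1.34 ± 0.07 for RPL27 to 0.73 ± 0.07 for RPS7, so none of the 21 had a 2-fold rise.

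Clock genes are of interest because the harvest hours may differ. Of 15 clock and flowering genes 8 rose, 5 fell and 2 had no call, with a median of 0.53, and with spike-in centring 7 rose and 7 fell. CCA1, which peaks near dawn, fell from 10.81 and 10.61 to 9.27 and 9.23, and PRR37, a daytime regulator, from 12.27 and 12.17 to 10.79 and 10.93. PRR1, the rice relative of the evening gene TOC1, rose from 8.22 and 8.15 to 9.58 and 9.64. The part of harvest time in these and other changes was not tested.

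Metal, defence and signalling lists held large changes in both directions. In the metallothionein and iron list 11 of 32 rose, 13 fell and 8 had no call. The metallothioneins MT1B and MT4C rose by 3.69 ± 0.09 and 3.41 ± 0.11, YSL13, of a family of transporters for chelated metals, rose by 3.6 ± 0.44, and Nramp1, a metal transporter, fell from 10.64 and 10.52 to 7.14 and 7.01. Pathogenesis-related and chitinase genes had 5 rises, 5 falls and 7 with no call among 17, and 5 rises and 10 falls with spike-in centring. NPR1 (LOC4327315), the salicylic acid coactivator, rose from 5.73 and 5.2 to 9.81 and 9.76, the chitinase RC24 rose by 2.9 ± 0.05 and the chitinase Cht4 fell by 3.09 ± 0.16. Diterpene phytoalexin genes, which make antimicrobial compounds of rice, were called in 4 of 13 cases, 2 in each direction, against 1 rise and 8 falls with spike-in centring, and OsKO4 fell by 3.71 ± 0.13. In calcium signalling 27 of 70 rose, 27 fell and 16 had no call, and with spike-in centring 24 rose and 33 fell. CIPK5, a CBL-interacting kinase, fell from 10.29 and 10.30 to 6.17 and 6.23, CIPK6 by 3.85 ± 0.31 and its partner class member CBL4 by 3.59 ± 0.26, while CML4, a calmodulin-like gene, rose by 4.01 ± 0.13. Of 16 MAP kinases 8 rose, 3 fell and 5 had no call, with MPK3 higher by 2.77 ± 0.16 and MPK7 lower by 1.8 ± 0.07, and with spike-in centring 5 rose and 7 fell.

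Where the response of M202(Sub1) differed from that of M202 was tested as an interaction, the change in M202(Sub1) minus the change in M202, from the same fit. It was called for 4223 of 34355 probe sets (12.3%), 2186 higher (6.36%) and 2037 lower (5.93%). With spike-in centring 1199 were higher and 3941 lower, since that scaling moved the median interaction from 0.02 to -0.16. Without replicate 2 of submerged M202 1361 were higher, and without replicate 1 or 2 of non-submerged M202 1220 or 1213 were lower. Among the 9517 probe sets that rose in M202(Sub1), 1736 had a higher and 277 a lower change than in M202, and among the 7291 that fell, 230 had a higher and 1518 a lower one. The same M202(Sub1) arrays enter both calls, so these counts are not independent of the calls of rises and falls. Of the 197 named genes 133 had no call for it, 33 were higher and 31 lower.

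Among named genes HSP26.7 differed most between the lines. It stood at 2.25 and 2.25 and 2.25 and 2.25 in non-submerged and submerged M202, the same values as in non-submerged M202(Sub1). Its interaction was 9.86 ± 0.07 (limma adjusted p = 6.25e-06). GRF7 had 2.52 and 2.52 and then 2.55 and 2.53 in M202, an interaction of 3.04 ± 0.29. BZR3 had 7.5 and 7.25 in non-submerged M202, near its level in non-submerged M202(Sub1), and 7.47 and 7.29 after submergence, an interaction of 1.8 ± 0.15 (limma adjusted p = 0.00424). HSP26.7, GRF7 and BZR3 rose in M202(Sub1), and in M202 their changes lay within 0.02 of 0. NRT2.3 rose by 0.67 in M202, with an interaction of 2.52 ± 0.27, and the PHT3 gene by 1.9, with 2.87 ± 0.07. The SMR1 gene rose from 3.47 and 3.77 to 12.39 and 12.57 in M202(Sub1) and from 3.21 and 3.14 to 8.65 and 8.71 in M202, an interaction of 3.35 ± 0.17.

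Several falls were shallower or deeper than in M202. OsPM19L1, a membrane protein gene of the dehydrin and LEA list, fell by 1.99 in M202(Sub1) and by 5.23 in M202. It began at 8.32 and 8.2 in M202 against 5.1 and 4.67 in M202(Sub1). RAB21 fell by 3.01 against 4.74, and it too began higher in M202, at 8.79 and 8.54 against 6.9 and 7.09, and ended at 3.86 and 3.99 against 3.99 and 3.99. Dhn1 went the other way, with 5.17 against 4.17, a difference that lost its call when either array of non-submerged M202 was left out. The list had 4 higher and 1 lower interaction among 7 genes, and the 4 with a higher one all had higher non-submerged values in M202 than in M202(Sub1). PMEI8 fell by 6.32 against 3.24, an interaction of -3.08 ± 0.14, and LAC4 by 4.31 against 2.77. PORA, a protochlorophyllide reductase, went from 14.03 and 13.98 to 12.72 and 12.67, a fall of 1.31 against 0.31 in M202. Lsi6 fell by 1.5 against 0.22. Among lignin and phenylpropanoid genes 10 of 25 had a lower and 0 a higher interaction, among antioxidant genes 9 of 35 were lower and 5 higher, and among auxin genes 11 of 53 were higher and 4 lower, beside 9.10% higher and 8.61% lower over all genes.

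**Figure D4:**
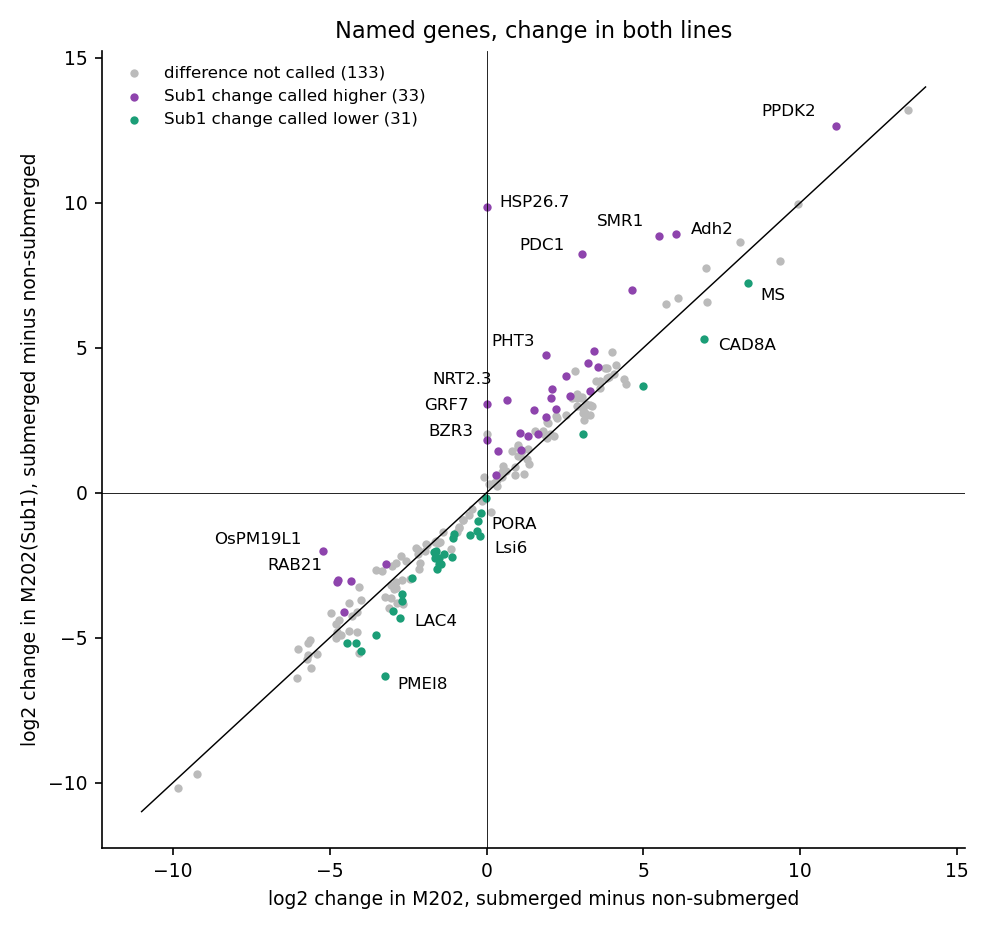
Log2 change after submergence of the 197 named genes in M202 (x axis) and M202(Sub1) (y axis), 1 point per gene, with the diagonal as equal change. Purple points had a higher (33) and green points a lower (31) change in M202(Sub1) by the interaction test, and grey points were not called. HSP26.7, GRF7 and BZR3 lie above 0 on the y axis and near 0 on the x axis.

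PPDK2 and the glyoxylate cycle genes MS and ICL differed in direction in this test. PPDK2 rose by 12.64 against 11.15 in M202, and this difference lost its call when any 1 array of M202(Sub1) or of submerged M202 was left out, and with no filter on low values. MS rose by 7.24 against 8.32, and ICL by 7.98 against 9.36, where the difference was not called (-1.38 ± 0.51, limma adjusted p = 0.168). CAD8A and MT1B rose less than in M202, by 5.3 against 6.93 and by 3.69 against 4.98. For the clock, PRR1 rose by 1.43 against 0.37, CCA1 fell by 1.46 against 0.51, and PRR37 fell by 1.36 against 1.38, with no call.

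By chromosome, the share of probe sets paired with 1 gene that rose ran from 30.7% on chromosome 12 to 38.8% on chromosome 2. The share that fell ran from 25.4% on chromosome 10 to 30.0% on chromosome 7. Of 1241 genes with 2 or more called probe sets, 1180 had them all in 1 direction in M202(Sub1) and 61 did not.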

How the data were processed

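Total RNA of aerial tissue was labelled with biotin by a one-cycle protocol and hybridized to Affymetrix rice arrays, 1 array per sample, per the labels' protocols. The authors deposited 1 log2 signal for each probe set on each array. GCRMA and MAS5 appear in the submitters' processing notes, with no role or version, and no genome build is stated in these sources. The values share a floor of 2.22 and end at 16.9, with 37.3% to 38.8% of each array at the floor, which limits the folds of dim genes and shrinks their SE. Arrays have no read depth, and 2 arrays per group limit the precision.

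Of 57381 probe sets, 123 controls were left out, and probe sets with a mean over the 8 arrays at or above the 40th percentile (2.23) were tested, 34355 in all. limma 3.58.1 in R 4.3.3 was fitted to all 8 arrays with 1 coefficient per group, with eBayes and an intensity trend (4 residual degrees of freedom, 0.99 added by the prior), and p-values were Benjamini-Hochberg adjusted over all probe sets tested. At an unadjusted p below 0.05 there were 18175 probe sets. An exact permutation test of 2 against 2 arrays cannot go below p = 0.333 and was not run. The fit was tested on simulated data. Tables were made with Python 3.11.15 and pandas 2.3.3.

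The platform annotation pairs 22436 probe sets with 1 gene, 95 with several and does not list 34727. RefSeq's gene table matched all 17905 genes by identifier, and a name was kept, mostly from its synonyms, for 2450. As a rule, synonyms that are clone or gene model numbers, or CYP or ERF with a number, were not kept. That use of synonyms was settled after the names were seen and before any test. Per gene the probe set with the highest mean was used, and for 27 of 197 named genes it may also detect other transcripts by its type, PPDK2, AldC-1, NRT2.3, Lsi6, SWEET2B, SWEET11, SAT1, SAT4, HAK1, BGLU16, GLO4, GDCSH, ABA8OX2 and NSHB1 among them. Named genes were the 12 largest rises and 12 largest falls with arrays that do not overlap, the same among genes with both group means of at least 5, and up to 4 called members per list with the largest changes. The members and the 46 lists were chosen with earlier results of these data known.

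The replicate numbers of the labels did not pair the arrays, since deviations of same-numbered arrays from their group means correlated at 0.008 to 0.178 (0.034 within M202(Sub1)). Alternatives were a fit of the 4 M202(Sub1) arrays alone, the replicate block, other filters, a raised floor, quantile and spike-in scaling, other variance models, gene means and leaving out each array. Promoter motifs were not searched here.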

Additional observations from a re-analysis of the deposited data

Results flagged for a closer look

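Of the 197 named genes, 35 had a response in M202(Sub1) that differed from that in M202 by the interaction test and by at least 2-fold, 21 higher and 14 lower (limma adjusted p from 6.25e-06 to 0.0387). A further 29 were called with smaller differences. Groups of 2 arrays are too small to look for a single array that stands apart. The values below are the log2 change in M202(Sub1) minus that in M202.

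The metabolic genes with a higher change were PDC1 with 5.19, Adh2 with 2.89, PDC2 with 1.51, PPDK2 with 1.5, AldC-1 with 1.34 and GAPC3 with 1.22. Stress and transport genes with a higher change were HSP26.7 with 9.86, HSF03 with 1.49, the peroxidase gene LOC4344277 with 2.35, PHT3 with 2.87 and NRT2.3 with 2.52. Growth and hormone genes with a higher change were GRF7 with 3.04, BZR3 with 1.8, PRR1 with 1.06, LOX9 with 1.24, ABA8OX1 with 1.45 and SMR1 with 3.35. OsPM19L1 with 3.24, RAB21 with 1.73, Cht4 with 1.67 and RR9 with 1.28 fell in both lines, less far in M202(Sub1).

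Rises that were smaller in M202(Sub1) were those of CAD8A with -1.63, MT1B with -1.28, MS with -1.09 and RCCR1 with -1.06. Falls that went further in M202(Sub1) were those of PMEI8 with -3.08, LAC4 with -1.55, BURP2 with -1.48, BGLU16 with -1.4, Lsi6 with -1.27, OsTrxy with -1.12, 4CL2 with -1.12, SWEET2B with -1.03, BU1 with -1.03 and Dhn1 with -1.0. In 28 of the 35 genes the call and its direction were the same under every alternative in which the probe set was tested, gene means aside. PPDK2, ABA8OX1, BU1, 4CL2, Dhn1, Cht4 and BGLU16 lost the call under at least 1 alternative, with the same sign.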

How the results depend on the processing

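Of 197 named genes, 182 kept their direction and their call under every alternative in which their probe set was tested, and 26 were not tested with a mean of at least 5. All alternatives tested 171 genes, of which 160 kept both. Centring on the poly(A) spike-ins raised the calls in M202(Sub1) from 16808 to 26526, of which 19710 were lower, and the spike-in set with a mean of at least 5, added after the data were seen, gave 27140 with 20778 lower. For the interaction these scalings gave 1199 and 1051 higher and 3941 and 4288 lower, and higher calls were 23.3% and 19.7% of the total against 51.8%. Without a filter the interaction calls fell from 4223 to 2650 (1323 higher and 1327 lower), where 57258 probe sets were adjusted for. With gene means, which test 16032 genes, 11045 were called in M202(Sub1), 6193 higher and 4852 lower. Leaving out 1 array at a time gave 15711 to 16347 calls in M202(Sub1), and for the interaction 1361 to 2194 higher and 1213 to 2412 lower. Of the arrays, replicate 2 of submerged M202 gave the lowest higher count, and leaving out replicates 1 and 2 of non-submerged M202 gave 1220 and 1213 lower. The replicate block gave 16707 calls and 3636 for the interaction, within 1.5 times of the counts without it, and of the 35 named genes with a 2-fold interaction only PPDK2 lost its call under it. Reversed values were PHT1-1 with -0.040 for the mean of its probe sets, SDH6 with -0.052 and -0.11, EREBP1 with -0.10 and -0.16 under the 2 spike-in centrings, and SDH1 with -0.051 under the second. The causes were not tested. Genes near the floor have limited folds, and harvest time, age and submergence cannot be told apart.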
